A study of Mus musculus with 18 samples.

Results

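The genes described here encode the enzymes, carriers and regulators of the tricarboxylic acid (TCA) cycle, of the entry of pyruvate into it and of fatty acid oxidation. They are the 37 rows of the gene count table whose Ensembl identifier maps to a listed mouse symbol, out of 54532 genes in the table, and all 37 passed the filter on low counts that left 17833 genes for testing. The RNA came from the gastrocnemius, a calf muscle, of female C57BL/6 mice in a hindlimb unloading and reloading experiment. Each of 6 groups held 3 libraries: flox/flox mice and mice with a conditional skeletal muscle knockout of Zfp697 (mKO), each as controls in conventional cages, after 10 days of unloading, or after 3 days of reloading. Both genotypes carry the floxed allele by their labels. The promoter that drives the recombinase, the age of the mice and the deleted exons are not given in the sources used here. The labels do not say whether the 3 libraries of a group are 3 animals, so the p-values measure the spread between these libraries, which may be technical.

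Pyruvate and fatty acids both reach the TCA cycle as acetyl-CoA. The pyruvate dehydrogenase complex makes it from pyruvate and is switched off by pyruvate dehydrogenase kinases, while fatty acids are taken up, bound in the cytosol, carried into mitochondria on carnitine and shortened by beta-oxidation. Electrons from the acyl-CoA dehydrogenases pass through the electron transfer flavoprotein to the respiratory chain. Muscle fibres with a high oxidative capacity hold much of this machinery, and its genes are known targets of PPAR and estrogen-related receptors with the PGC-1 coactivators.

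Library totals were 45069595 to 51592566 gene counts, and the members took 0.940% to 1.29% of them. The lowest count of a member in a library was 67, so counting error was small beside the spread between libraries. All 11 skeletal muscle fibre markers checked were counted in every library, with a summed level of 115435 to 161914 CPM. CPM is the count scaled to the library total with TMM normalisation. Tnnc2 was low among these markers, at 74 to 126 counts in a library, and it enters the fibre marker medians given below. Zfp697 itself stood at 1.19 ± 0.35 CPM (mean ± SD, n = 3) in flox control, 1.65 ± 0.08 in flox unloading and 2.57 ± 0.23 in flox reloading, against 1.20 ± 0.13, 1.66 ± 0.72 and 1.68 ± 0.25 in the same mKO groups. Counts of the whole gene did not separate the genotypes in control or unloading libraries, and the mKO value at reloading missed the threshold against flox (log2 fold change -0.61 ± 0.25 SE, adjusted p = 0.172), so this gene count does not check the genotype labels and genotypes are given as labelled. When libraries were scaled to their total counts in place of TMM, the median of all tested genes moved to 0.15 (log2) in flox reloading against control, to 0.11 in flox reloading against unloading and to -0.13 in mKO against flox at reloading. Higher genes then made up 80.5% in place of 54.4%, 71.8% in place of 53.3% and 2.42% in place of 21.6% of all genes called in these comparisons.

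One mKO reloading library, replicate 2, stood apart. For each library the log2 CPM of each member was set against the mean of the flox controls, and the median over the 37 members was 0.08 in mKO reloading replicate 1 and -0.04 in replicate 3, but -0.40 in replicate 2. The 3 flox reloading libraries had medians of -0.39, -0.33 and -0.44. In replicate 2, 35 of the 37 members lay below both other mKO reloading libraries, against 35.0% of all tested genes, and 24 lay within the range of the flox reloading libraries. The exceptions were Cpt1b and Pdk4, which lay above both. The same library had a summed macrophage marker level of 189 CPM, against 146 and 126 CPM in the other mKO reloading libraries and 279 to 422 CPM in flox reloading, and a fibre marker sum of 133048 CPM against 153601 and 161914 CPM. The part of these markers in the members' levels was not tested. Over the whole count table replicate 2 was also nearer to flox reloading than to its own group. A chi-square per gene, which measures how far the counts of 2 libraries differ, was 39.3, 44.7 and 34.2 against flox reloading replicates 1, 2 and 3. It was 66.5 and 58.0 against mKO reloading replicates 1 and 3. The cause of this likeness was not tested. Counts of the 37 members called by edgeR that rest on mKO reloading are therefore given with and without this library. Other values that rest on mKO reloading are given both ways only in part.

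**Figure D1:**
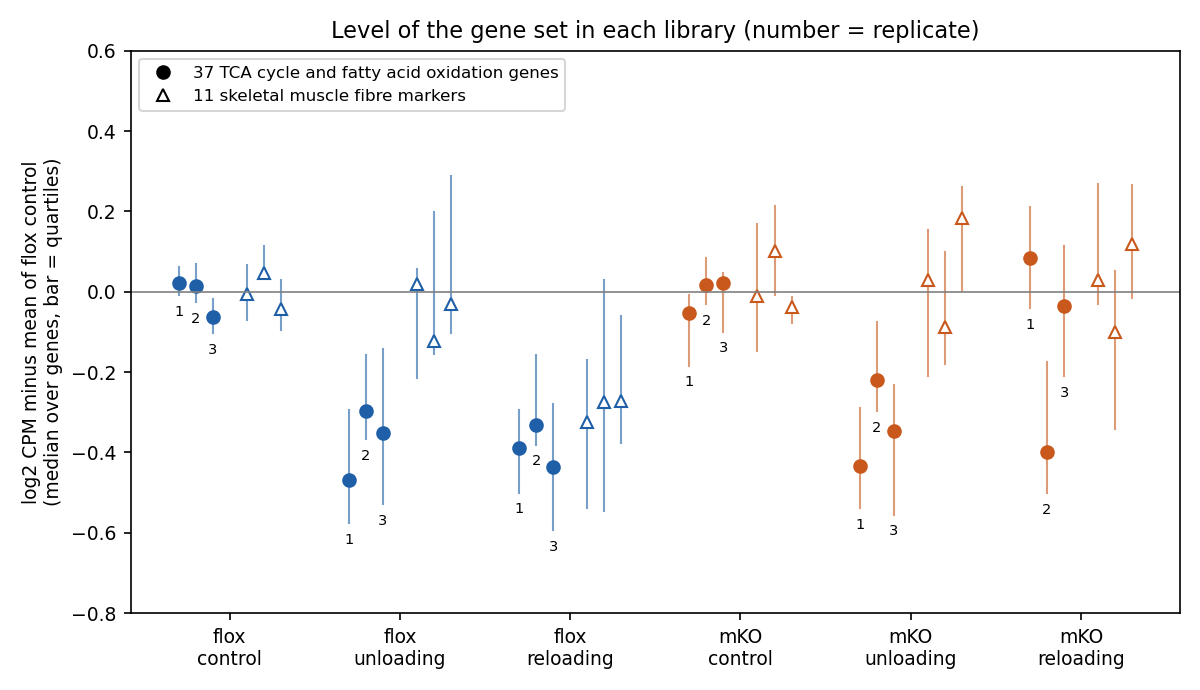
Median over the 37 genes (filled circles) and over 11 skeletal muscle fibre markers (open triangles) of log2 CPM minus the flox control mean, in each of the 18 libraries grouped along the horizontal axis, with bars from the lower to the upper quartile of the genes and numbers naming the replicate. The members sit below 0 in all unloading and flox reloading libraries and in mKO reloading replicate 2 at -0.40, while replicates 1 and 3 of mKO reloading sit at 0.08 and -0.04.

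Levels of the members were set against each other per length of annotated exons (RPKM). This length holds all exon bases annotated to a gene (8286 for Echs1), not those of 1 transcript, so the order depends on the annotation. In flox control muscle Fabp3, the heart-type fatty acid binding protein, was highest at 355 ± 94.0 RPKM (SD, n = 3). Cpt1b, the muscle carnitine palmitoyltransferase of the outer mitochondrial membrane, was lowest at 1.23 ± 0.06 RPKM. The malate dehydrogenases followed Fabp3, with Mdh1 at 218 ± 2.80 RPKM and Mdh2 at 197 ± 11.4 RPKM, then Ogdh at 182 ± 14.6 RPKM and Pdha1 at 171 ± 4.54 RPKM. Mdh2 and Ogdh differed by about their spread, and Pdk2 (161 ± 17.4 RPKM), Pdk4 (157 ± 56.9 RPKM) and Cs (154 ± 4.55 RPKM) did not differ from each other beyond it. Some of these levels depend on how reads in shared exons were counted: 81.4% of the exon bases of Cpt1b are also annotated to Gm44502 on the same strand, 58.2% of those of Etfb to other genes (mostly Gm45233) and 42.9% of those of Acadvl to Dvl2 on the opposite strand. The low RPKM of Cpt1b and of Etfb (9.42 ± 0.85 RPKM) are therefore uncertain as gene levels, and so are their changes. Another 7 members shared between 0.146% and 19.6% of exon bases with other genes, and 27 shared none.

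The promoter windows of the members, 250 bases before to 50 bases after the start in RefSeq (assembly GRCm38.p6), were searched on both strands for the receptor elements named above, since many members moved together. A window was listed for 33 of the 37 members. TNAAGGTCA, the extended element of estrogen-related receptors, was in 0 of 33 windows and in 1.43% of all genes with a window, and the direct repeat of AGGTCA with 1 base between its copies, bound by PPAR with RXR, was in 0 of 33 and 0.0481% of genes. The shorter core AAGGTCA, added after those searches and contained in the longer estrogen-related receptor element, was in 2 of 33 members (6.06%) and 5.38% of all genes. The share of members was thus close to that of all genes. The match is in capitals (read on the opposite strand) in the windows of Acadm, which encodes medium-chain acyl-CoA dehydrogenase, at chr3:153944594-153944893 on the minus strand, and Ogdh, which encodes the decarboxylase of the oxoglutarate dehydrogenase complex, at chr11:6291920-6292219 on the plus strand. Both windows are shown because these genes had the element and lower counts in reloaded flox muscle, with each sequence written along its gene's own strand.
Acadm: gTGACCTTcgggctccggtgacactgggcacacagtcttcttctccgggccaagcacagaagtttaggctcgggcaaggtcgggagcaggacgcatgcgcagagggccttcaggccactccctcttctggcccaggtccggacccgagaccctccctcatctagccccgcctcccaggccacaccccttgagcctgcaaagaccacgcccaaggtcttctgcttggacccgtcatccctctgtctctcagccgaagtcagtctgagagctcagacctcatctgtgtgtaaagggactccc
Ogdh: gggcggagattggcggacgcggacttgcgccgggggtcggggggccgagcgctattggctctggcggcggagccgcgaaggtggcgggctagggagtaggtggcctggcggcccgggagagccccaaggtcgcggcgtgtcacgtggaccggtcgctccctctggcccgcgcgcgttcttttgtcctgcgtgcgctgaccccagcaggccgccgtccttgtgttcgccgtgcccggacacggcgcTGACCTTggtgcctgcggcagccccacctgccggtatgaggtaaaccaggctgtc

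In flox muscle most members had lower counts after unloading than in control, and most were still below control after reloading. Differences between groups are given as log2 fold changes ± the standard error (SE) from edgeR's quasi-likelihood test, and p-values are Benjamini-Hochberg adjusted over all 17833 tested genes. Against flox control, 15 of 37 members were lower at an adjusted p under 0.05 after 10 days of unloading and 0 were higher, while 3.07% of all tested genes were lower and 2.67% higher. The members' median log2 fold change was -0.36, against 0.00 over all tested genes, and all 37 values were negative, from Fabp3 at -1.08 to Idh3a at -0.0037. The CPM ranges of the 3 unloaded and 3 control libraries did not overlap for 29 members, all lower when unloaded, against 12.8% of tested genes. The count of 15 depended on single libraries: it was 5 without flox control replicate 1 or 2, 2 without flox unloading replicate 1, 9 without flox unloading replicate 3 and 23 without mKO reloading replicate 2, which entered the shared estimate of spread. Acads and Hadh were called without each of the 18 libraries in turn.

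After 3 days of reloading, 24 of 37 members were below flox control and 0 above, against 10.3% of tested genes lower and 12.3% higher, with a median log2 fold change of -0.40. Ranges did not overlap for 29 members that were lower and for 1, Dlst, that was higher, against 19.2% and 20.7% of tested genes. Under total-count scaling the members' median was -0.25, with 10 members lower and Dlst higher (0.15 with TMM, 0.30 with total counts). The count was 15 without flox control replicate 1 and 12 without flox control replicate 2, and 12 members were called without each single library in turn. Between unloading and reloading in flox muscle 4 members rose and 3 fell, against 17% and 14.9% of tested genes, and the median was 0.00 (0.11 under total-count scaling). Ranges did not overlap there for 6 members that were higher and 5 that were lower, against 23.1% and 20.9% of tested genes. These 3 comparisons share libraries in pairs, so their values stand side by side and are not independent.

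In mKO muscle 9 of 37 members were lower after unloading and 0 higher, against 3.66% and 4.09% of tested genes, with a median of -0.29. Ranges did not overlap for 27 members, all lower, against 14% of tested genes. The count was 5 without mKO control replicate 2, 3 without unloading replicate 1 or 3 of that genotype, 15 without its unloading replicate 2 and 21 when mKO reloading replicate 2 was left out. From unloading to reloading 9 members rose and 0 fell, against 9.53% and 8.81% of tested genes, with a median of 0.25. Ranges did not overlap for 6 of the 37 members, all higher, which is close to the 16.6% of tested genes higher in that sense. Without mKO reloading replicate 2, 22 members rose and 0 fell (7.11% and 6.2% of genes tested) and the median was 0.38, while the count was 14 when unloading replicate 2 was left out and 5 when any 1 of the unloading or reloading replicates numbered 1 and 3 was. Against mKO control, reloaded mKO muscle had 0 members called by edgeR (2 without mKO reloading replicate 1), against 1.34% of tested genes higher and 0.841% lower. An unadjusted p under 0.05 was found for 4 members, against 16% of tested genes, and DESeq2 called 2 lower, Acads and Idh3g, against 4.96% of tested genes called in either direction. These shares of members are near or below those of all genes. Ranges did not overlap for 1 member that was higher, Dlst, and 4 that were lower (Acads, Echs1, Idh3g and Sucla2), against 10% and 9.84% of tested genes. The median there was -0.08, and 0.05 without replicate 2, with 0 members called against 0.323% of genes higher and 0.142% lower.

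Between the genotypes, which share no libraries within a change, the log2 fold changes of the 37 members had a Pearson correlation of 0.92 (Spearman 0.89) for unloading against control. The points of that correlation are genes measured in shared libraries, so it is a description with no test. The 8 members called in both genotypes were 53.3% of those called in flox and 88.9% of those called in mKO. For reloading against unloading the correlation was 0.89 (Spearman 0.85), and the 4 members called in both were 57.1% of the flox and 44.4% of the mKO members called. For reloading against control the correlation was 0.81 (Spearman 0.79), with 24 members called in flox alone and 0 in both. Over all tested genes, those called in both genotypes in the same direction were 55.9% of the genes called in flox and 41.4% of those called in mKO for unloading, 44.1% and 76.9% for reloading against unloading, and 8.05% and 83.5% for reloading against control.

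**Figure D2:**
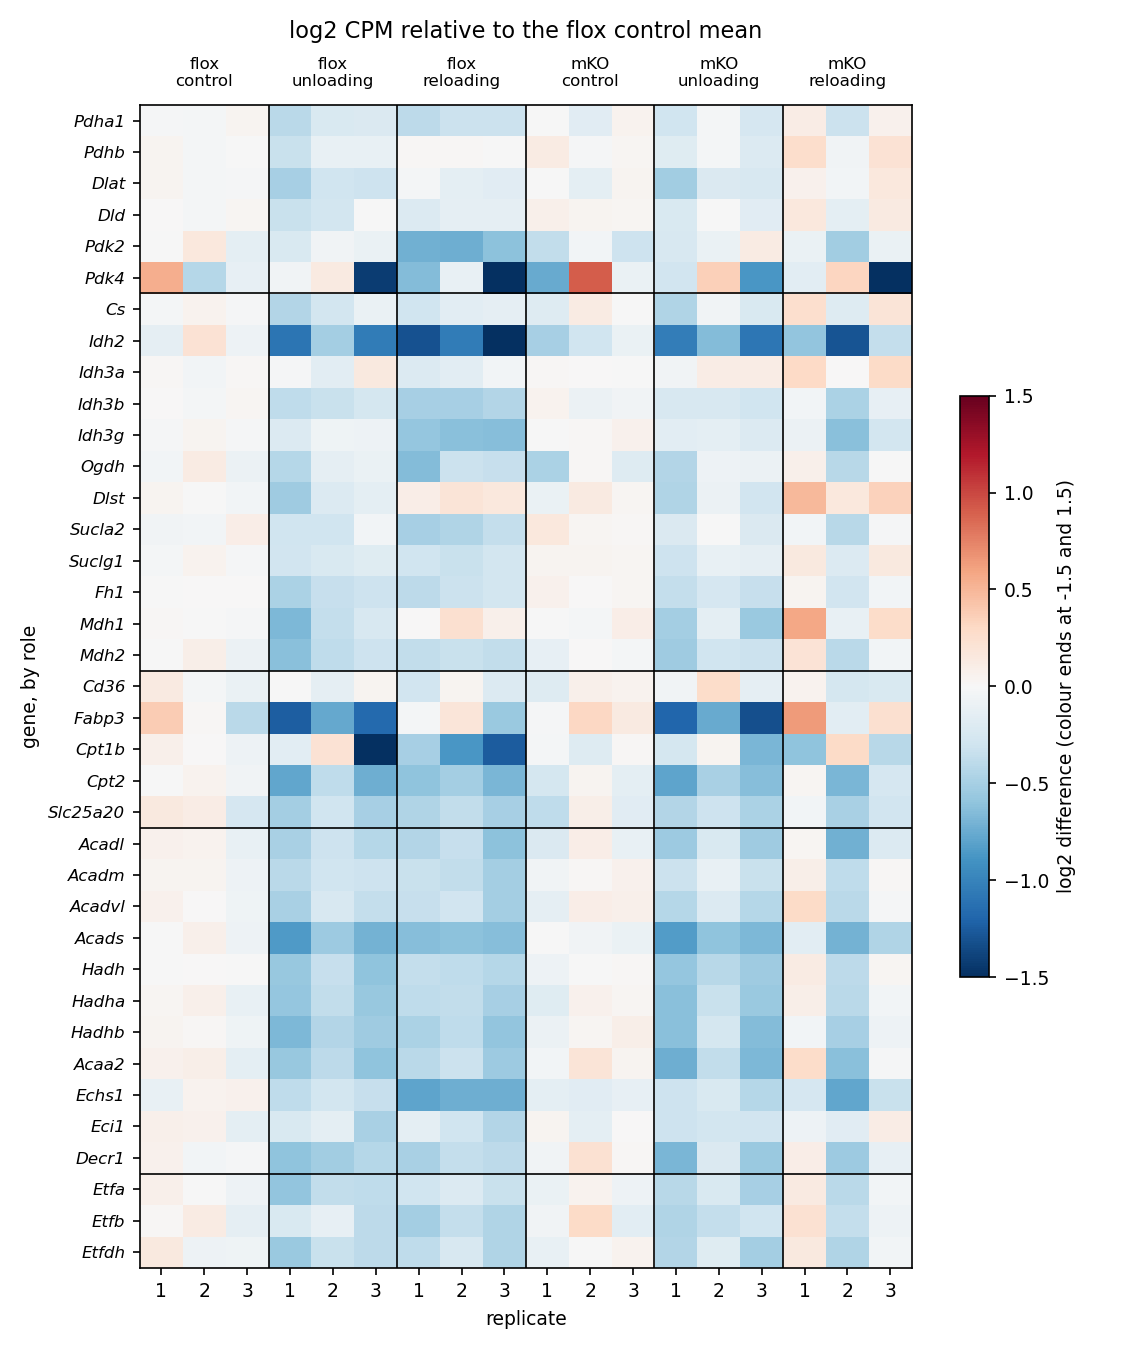
Log2 CPM of each member (rows, grouped by role as in the text) in each of the 18 libraries (columns) relative to the mean of the 3 flox controls, blue for lower and red for higher, with colours ending at -1.5 and 1.5. Blue runs through most rows in both unloading groups, in flox reloading and in mKO reloading replicate 2, while the Pdk4 row changes colour between replicates of the same group.

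**Figure D3:**
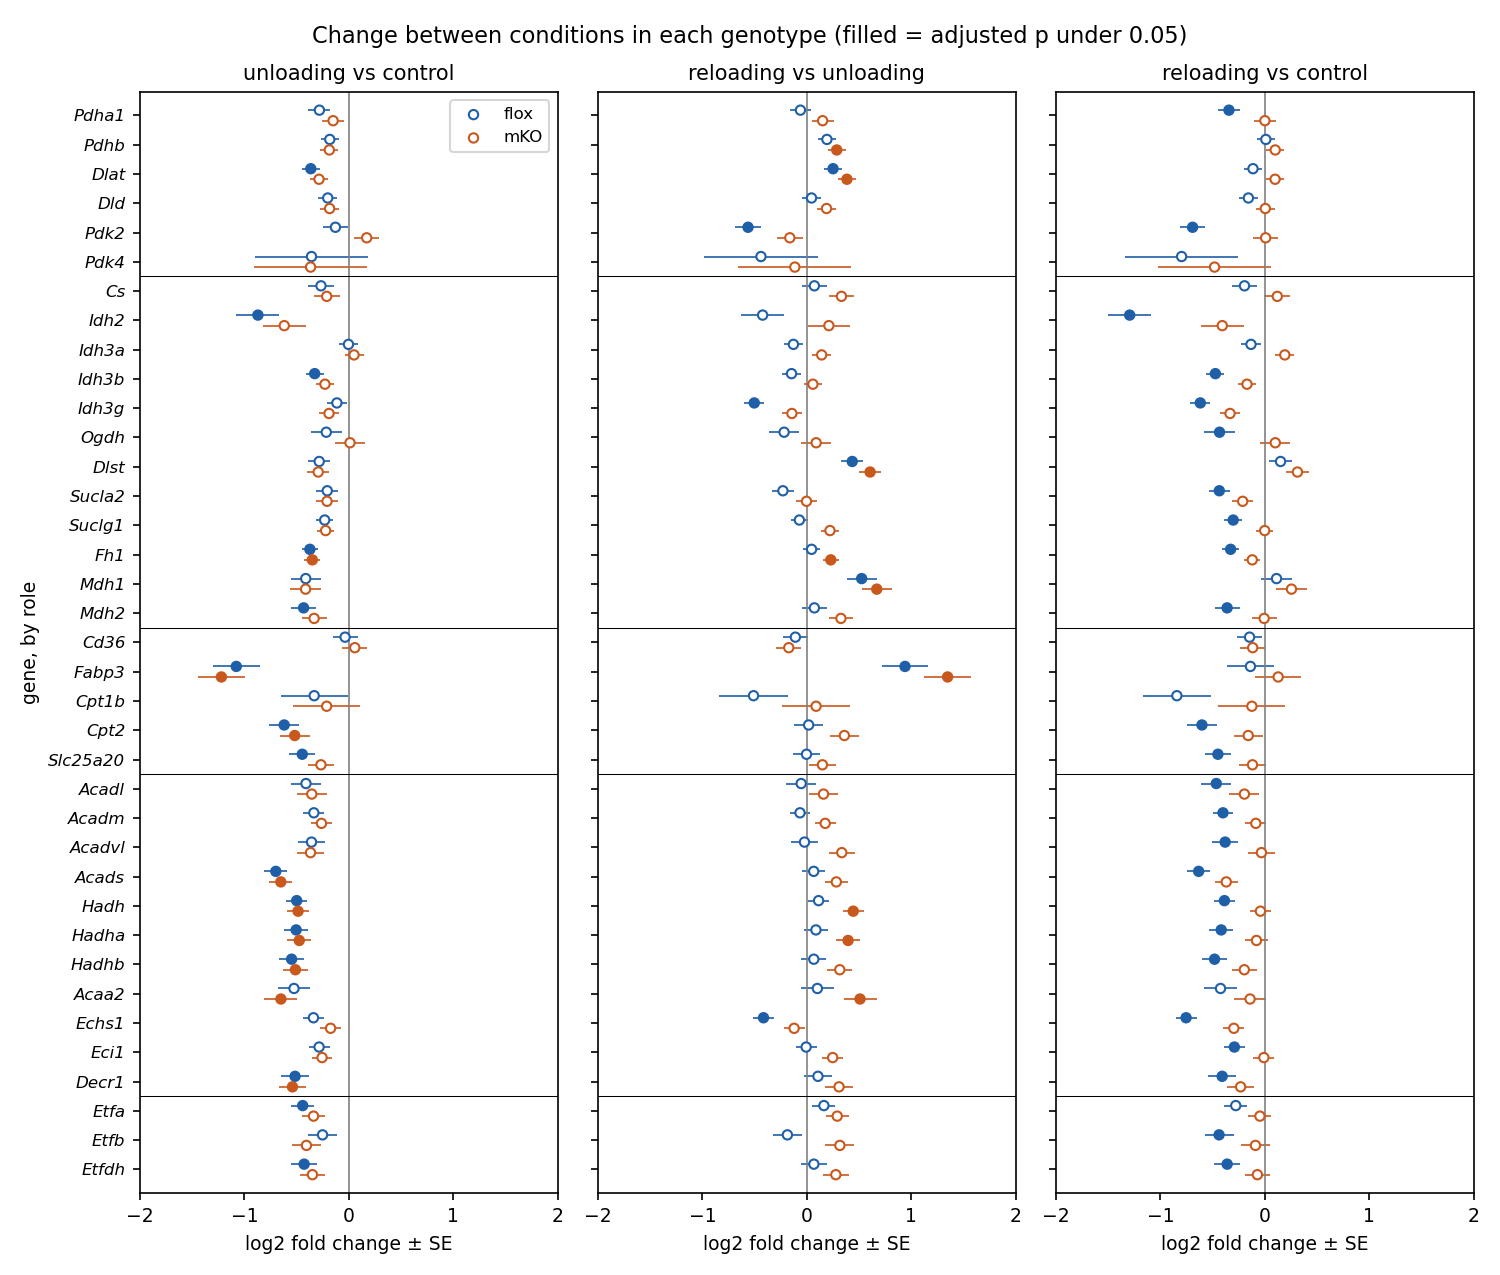
Log2 fold change with its standard error for each member (vertical axis, grouped by role) in flox (blue) and mKO (orange) muscle for the 3 comparisons between conditions, with filled points at an adjusted p under 0.05. Unloading points lie at or left of 0 in flox muscle, from -1.08 for Fabp3, and in the comparison of reloading with control 24 flox points and 0 mKO points are filled.

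In the pyruvate dehydrogenase group, Dlat fell at unloading in flox muscle and the kinase gene Pdk2 was lower in reloaded flox muscle. Of the 6 genes, 1 was lower in unloaded flox muscle (Dlat) and 0 in unloaded mKO muscle by edgeR. Dlat, the acetyltransferase core of the complex, had 260.3, 248 and 249 CPM in flox control, 179, 205 and 204 in flox unloading and 248, 228 and 225 in flox reloading. The mKO values of Dlat were 250.4, 228 and 260.4 CPM in mKO control, 176, 216 and 214 in mKO unloading and 264, 244 and 282 in mKO reloading. Dlat fell at unloading in flox (-0.36 ± 0.09, adjusted p = 0.0212) and rose at reloading in flox (0.25 ± 0.09, adjusted p = 0.0368) and in mKO (0.38 ± 0.09, adjusted p = 0.00566; 0.43 ± 0.10 without mKO reloading replicate 2), with ranges that did not overlap in any of these. Pdha1, the alpha subunit of the decarboxylase component, had 631, 629 and 659 CPM in flox control, 482, 546 and 551 in flox unloading and 489, 513 and 511 in flox reloading. The mKO levels of Pdha1 were 636, 569 and 664 CPM in mKO control, 521, 627 and 536 in mKO unloading and 692, 509.7 and 668 in mKO reloading. Pdha1 was lower in flox reloading than in flox control with no overlap (-0.34 ± 0.10, adjusted p = 0.0236), while the mKO reloading value against its control was 0.00 ± 0.10. Pdhb, the beta subunit, had 289, 273 and 278 CPM in flox control, 223, 259 and 259 in flox unloading and 284, 283 and 278 in flox reloading. In mKO muscle Pdhb had 306, 277 and 287 CPM in mKO control, 246, 274 and 243 in mKO unloading and 337, 270.0 and 324 in mKO reloading, and its rise from unloading to reloading (0.29 ± 0.09, adjusted p = 0.0258) came with overlapping ranges, because replicate 2 lay within the unloading range; without it the change was 0.38 ± 0.08, adjusted p = 0.00545. Dld, the lipoamide dehydrogenase that this complex shares with oxoglutarate dehydrogenase, was called in none of the comparisons between conditions with all libraries, and its flox unloading value was -0.20 ± 0.09.

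Pdk2, a kinase that phosphorylates and inhibits pyruvate dehydrogenase, had 505, 568 and 458 CPM in flox control, 434, 492 and 474 in flox unloading and 309, 306 and 333 in flox reloading. Its mKO values were 392, 495 and 409 CPM in mKO control, 430.2, 473 and 555 in mKO unloading and 474, 355 and 473 in mKO reloading. All 3 flox reloading libraries lay below every other library of the study for Pdk2. The flox decrease was -0.56 ± 0.12, adjusted p = 0.00186 from unloading and -0.69 ± 0.12, adjusted p = 0.000606 from control, whereas mKO values were -0.16 ± 0.12 and 0.01 ± 0.12 (SE), and both flox calls held without each single library. Pdk4, the related kinase induced by fasting and fatty acids, had 776, 393 and 488 CPM in flox control, 513, 582 and 198 in flox unloading and 336, 490.2 and 127 in flox reloading. For mKO, Pdk4 had 313, 998 and 493 CPM in mKO control, 433, 678 and 288 in mKO unloading and 474, 663 and 155 in mKO reloading. Every group spanned more than its difference from the others, and the ranges overlapped in every comparison between conditions. The Pdk4 log2 fold changes were -0.36 ± 0.54 in unloaded and -0.80 ± 0.54 in reloaded flox muscle against control, -0.44 ± 0.54 between them, and -0.37 ± 0.54, -0.48 ± 0.54 and -0.11 ± 0.54 for the same changes in mKO muscle. Pdk4 was not called in any of them by edgeR with the low-count filter or by DESeq2; without the filter edgeR called 5 of these 6.

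Among the 12 TCA cycle genes, Idh2 changed most in flox muscle and Mdh1 and Dlst rose on reloading. In flox muscle 4 of the 12 were below control after unloading and 8 after reloading, and the mKO counts were 1 at unloading and 0 at reloading against control. Cs, citrate synthase, which condenses acetyl-CoA with oxaloacetate and is often used as an index of mitochondrial content, had 872, 918 and 874 CPM in flox control, 654, 734 and 826 in flox unloading and 724, 797 and 807 in flox reloading. The Cs values in mKO were 773, 964 and 885 CPM in mKO control, 651, 857 and 755 in mKO unloading and 1057, 775 and 1016 in mKO reloading. Cs was not called in any comparison by the main edgeR fit, with all libraries, TMM scaling and the low-count filter. It was -0.27 ± 0.12 in unloaded and -0.19 ± 0.12 in reloaded flox muscle against control and 0.07 ± 0.12 between them. In mKO it was -0.21 ± 0.12, 0.12 ± 0.12 and 0.33 ± 0.12, and only the last was called in an alternative fit. It passed in 2 of the 18 edgeR fits that left out 1 library, among them that without mKO reloading replicate 2 (0.46 ± 0.12, adjusted p = 0.0154). It also passed in 3 of the 7 other alternatives, DESeq2 among them (adjusted p = 0.0464).

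Idh2, the mitochondrial NADP-dependent isocitrate dehydrogenase, had 314, 401 and 329 CPM in flox control, 162, 243 and 167 in flox unloading and 140.0, 167 and 119 in flox reloading. The levels of Idh2 in mKO were 244, 282 and 322 CPM in mKO control, 169, 221 and 163 in mKO unloading and 229, 141 and 269.7 in mKO reloading. Flox unloading and flox reloading both lay below all flox controls. Idh2 fell by unloading in flox (-0.87 ± 0.21, adjusted p = 0.0187) and was lower still against control after reloading (-1.29 ± 0.21, adjusted p = 0.000261), while the step between them was -0.42 ± 0.20 and not called. In mKO muscle Idh2 was -0.62 ± 0.21 at unloading and -0.41 ± 0.20 at reloading against control, neither called. The reloading value was -0.18 ± 0.19 without mKO reloading replicate 2. For Idh2, 2 of the 3 mKO reloading libraries lay above every flox reloading library.

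The subunits of NAD-dependent isocitrate dehydrogenase, the enzyme of the cycle itself, did not move alike. Idh3b, a regulatory subunit, had 477, 466 and 485 CPM in flox control, 365, 377 and 396 in flox unloading and 338, 338 and 352 in flox reloading. In mKO, Idh3b had 494, 448 and 457 CPM in mKO control, 404, 403 and 387 in mKO unloading and 463, 344 and 437 in mKO reloading. It was lower in unloaded (-0.33 ± 0.09, adjusted p = 0.0342) and reloaded flox muscle (-0.47 ± 0.09, adjusted p = 0.000827) than in control, with no overlap in either. Idh3g, the other regulatory subunit, had 251, 261 and 250.4 CPM in flox control, 219.8, 244 and 241 in flox unloading and 169, 164 and 163 in flox reloading. Its levels in mKO were 252, 257 and 265 CPM in mKO control, 229, 230.0 and 219.8 in mKO unloading and 239, 164 and 211 in mKO reloading. The decrease of Idh3g came with reloading in flox (-0.50 ± 0.10, adjusted p = 0.000608 against unloading, -0.62 ± 0.10, adjusted p = 0.000200 against control), and the unloading value was -0.11 ± 0.10. Idh3a, the catalytic subunit, had 735, 702 and 735 CPM in flox control, 716, 649 and 802 in flox unloading and 627, 649 and 706 in flox reloading. Its mKO libraries held 732, 728 and 724 CPM in mKO control, 698, 783 and 779 in mKO unloading and 889, 724 and 882 in mKO reloading. Idh3a was called in no comparison between conditions and had the unloading value nearest 0 in flox muscle (-0.0037 ± 0.09).

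Downstream in the cycle, Ogdh had 962, 1083 and 933 CPM in flox control, 737, 905 and 922 in flox unloading and 633, 791 and 780.0 in flox reloading. In mKO the values of Ogdh were 713, 1000.0 and 869 CPM in mKO control, 733, 939.9 and 929 in mKO unloading and 1043, 742 and 983 in mKO reloading. It was lower in reloaded flox muscle than in control without overlap (-0.43 ± 0.15, adjusted p = 0.0393). Dlst, the succinyltransferase of the same complex, had 297, 287 and 281 CPM in flox control, 199.8, 249 and 261 in flox unloading and 308, 329 and 322 in flox reloading. Across mKO libraries Dlst had 269, 316 and 294 CPM in mKO control, 211, 270.3 and 236 in mKO unloading and 404, 322 and 365 in mKO reloading. Reloaded libraries were above all unloaded ones in both genotypes, and Dlst rose in flox (0.43 ± 0.11, adjusted p = 0.00474) and in mKO (0.61 ± 0.11, adjusted p = 0.000898; 0.69 ± 0.11 without replicate 2).

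Sucla2 and Suclg1 encode subunits of succinyl-CoA ligase, the step of the cycle that forms a nucleoside triphosphate. Sucla2 had 545, 549.5 and 605 CPM in flox control, 461, 462 and 549.9 in flox unloading and 400.2, 415 and 442 in flox reloading. The mKO libraries had for Sucla2 630.0, 576 and 573 CPM in mKO control, 489, 563 and 487 in mKO unloading and 549.9, 426 and 559.6 in mKO reloading. Sucla2 was lower in flox reloading than in control (-0.44 ± 0.10, adjusted p = 0.00507) with no overlap. Suclg1 had 259, 275 and 261 CPM in flox control, 217, 227 and 233 in flox unloading and 216, 211 and 218 in flox reloading. For Suclg1 the mKO values were 274, 273 and 271 CPM in mKO control, 213, 246 and 242 in mKO unloading and 292, 230.2 and 294 in mKO reloading. It was also lower in reloaded flox muscle than in control (-0.30 ± 0.08, adjusted p = 0.0141), and the mKO value of that change was 0.00 ± 0.08.

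Fh1, fumarase, had the smallest within-group spread of all members (SD 0.0864 on the log2 scale). Its flox values were 226, 228 and 228 CPM in flox control, 164, 179 and 183 in flox unloading and 173, 182 and 188 in flox reloading. The mKO values of Fh1 were 238, 227 and 231 CPM in mKO control, 177, 191 and 179 in mKO unloading and 235, 186 and 220.4 in mKO reloading. Fh1 fell at unloading in flox (-0.37 ± 0.08, adjusted p = 0.00956) and mKO (-0.35 ± 0.08, adjusted p = 0.0112), stayed below control in reloaded flox muscle (-0.33 ± 0.08, adjusted p = 0.00501) and rose on reloading in mKO (0.23 ± 0.08, adjusted p = 0.0471), where ranges overlapped through replicate 2 (0.32 ± 0.07, adjusted p = 0.00626 without it).

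The malate dehydrogenases of the cytosol (Mdh1) and the mitochondrion (Mdh2) work together in the malate-aspartate shuttle, and Mdh2 also closes the TCA cycle. Mdh1 had 567, 559 and 553 CPM in flox control, 352, 437 and 472 in flox unloading and 562, 662 and 590.3 in flox reloading. In mKO muscle the Mdh1 values were 558, 548 and 600.0 CPM in mKO control, 393, 505 and 382 in mKO unloading and 839.9, 519 and 677 in mKO reloading. Unloaded libraries lay below both controls and reloaded libraries in each genotype. Mdh1 rose on reloading in flox (0.52 ± 0.14, adjusted p = 0.00956) and mKO (0.67 ± 0.14, adjusted p = 0.00372; 0.83 ± 0.13 without replicate 2), while the unloading values, -0.41 ± 0.14 and -0.41 ± 0.14, were not called. Mdh2 had 702, 745 and 664 CPM in flox control, 455, 541 and 566 in flox unloading and 542, 556 and 545 in flox reloading. The mKO counterpart of Mdh2 had 645, 706 and 688 CPM in mKO control, 487, 572 and 560.4 in mKO unloading and 813, 533 and 684 in mKO reloading. Mdh2 fell at unloading in flox (-0.43 ± 0.12, adjusted p = 0.0394) and stayed lower than control after reloading (-0.36 ± 0.12, adjusted p = 0.0348), with no overlap in either comparison.

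Of the 5 genes for uptake, binding and carnitine transport, Fabp3 changed most and in both directions. Fabp3 had 371, 289 and 216 CPM in flox control, 121, 167 and 127 in flox unloading and 279.9, 322 and 194 in flox reloading. In mKO its values were 282, 355 and 314 CPM in mKO control, 125, 168 and 115 in mKO unloading and 445, 256 and 338 in mKO reloading. Unloaded libraries lay below every control and every reloaded library in both genotypes. Fabp3 fell at unloading in flox (-1.08 ± 0.22, adjusted p = 0.00956) and mKO (-1.22 ± 0.22, adjusted p = 0.00351) and rose on reloading in flox (0.94 ± 0.22, adjusted p = 0.00351) and mKO (1.35 ± 0.23, adjusted p = 0.000534; 1.52 ± 0.23 without replicate 2). Against control its reloaded values were -0.14 ± 0.22 in flox and 0.13 ± 0.22 in mKO, neither called. Reads in the 19.6% of its exon bases shared with other genes, 81 bases of them with Zcchc17 on the opposite strand, cannot be told apart from theirs, since counting did not use strand.

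Cpt2, the carnitine palmitoyltransferase of the inner membrane, had 68.0, 70.9 and 65.8 CPM in flox control, 39.8, 52.4 and 41.0 in flox unloading and 44.9, 47.7 and 42.3 in flox reloading. The corresponding mKO values of Cpt2 were 56.8, 70.4 and 61.8 CPM in mKO control, 39.4, 48.6 and 43.9 in mKO unloading and 69.7, 42.4 and 57.3 in mKO reloading. It was lower at unloading in flox (-0.62 ± 0.14, adjusted p = 0.0158) and mKO (-0.52 ± 0.14, adjusted p = 0.0332) and in reloaded flox muscle against control (-0.60 ± 0.14, adjusted p = 0.0048), with no overlap in any of the 3. Slc25a20, the translocase that exchanges acylcarnitine for carnitine, had 89.0, 86.7 and 67.7 CPM in flox control, 56.4, 65.2 and 57.1 in flox unloading and 59.0, 62.4 and 56.9 in flox reloading. Its values in mKO were 61.9, 85.4 and 71.6 CPM in mKO control, 59.4, 64.7 and 57.8 in mKO unloading and 78.4, 57.5 and 65.9 in mKO reloading. Slc25a20 was lower in unloaded (-0.45 ± 0.13, adjusted p = 0.0438) and reloaded flox muscle (-0.45 ± 0.13, adjusted p = 0.0145) without overlap, and -0.27 ± 0.13 in unloaded mKO muscle, where ranges overlapped. Cd36, the fatty acid translocase of the cell surface, was between 293 and 431 CPM in all 18 libraries, was called in no comparison and had log2 fold changes between -0.17 and 0.06 between conditions. Cpt1b, with 1.37 to 5.04 CPM, was also called in none. Its largest change was -0.84 ± 0.33, adjusted p = 0.0735 in flox reloading against control, where the ranges did not overlap.

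Most of the 11 beta-oxidation genes had lower counts than control in unloaded muscle of both genotypes and in reloaded flox muscle. Their medians were -0.50 in flox and -0.47 in mKO at unloading, with 5 and 6 of 11 called lower. Against control, the reloaded medians were -0.42 in flox, with 10 of 11 called, and -0.14 in mKO, with 0 called by edgeR (Acads by DESeq2). Without mKO reloading replicate 2 the mKO values ran from -0.24 (Acads) to 0.13 (Acadvl), with Acadm in the middle at 0.04. The acyl-CoA dehydrogenases carry out the opening step for chains of different length. Acads, for short chains, had 85.4, 90.1 and 81.4 CPM in flox control, 47.4, 58.5 and 52.3 in flox unloading and 55.0, 55.7 and 55.0 in flox reloading. In the mKO libraries Acads had 85.0, 82.8 and 79.9 CPM in mKO control, 47.7, 56.1 and 53.8 in mKO unloading and 76.9, 52.4 and 62.6 in mKO reloading. Every unloaded library lay below every control, and Acads fell in flox (-0.70 ± 0.11, adjusted p = 0.00129) and mKO (-0.65 ± 0.11, adjusted p = 0.00193) and was lower in reloaded flox muscle than in control (-0.63 ± 0.11, adjusted p = 0.000445). All 3 calls held without each single library. The reloaded mKO libraries also lay below all mKO controls, at -0.37 ± 0.11 with an adjusted p of 0.0813. Without mKO reloading replicate 2 this Acads value was -0.24 ± 0.10 with an adjusted p of 0.348.

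Acadm had 337, 337 and 311 CPM in flox control, 249, 267 and 265 in flox unloading and 261, 255 and 231 in flox reloading. The mKO levels of Acadm were 318, 332 and 342 CPM in mKO control, 262, 304 and 261 in mKO unloading and 348, 253 and 334 in mKO reloading. The flox reloading value was below control (-0.40 ± 0.10, adjusted p = 0.00724). Acadl, for long chains, had 287, 286 and 255 CPM in flox control, 197, 222 and 205 in flox unloading and 203, 217 and 179.9 in flox reloading. Its mKO libraries had 237, 295 and 256 CPM in mKO control, 189.7, 236 and 190.3 in mKO unloading and 282, 167 and 238 in mKO reloading. Acadl was also lower in reloaded flox muscle (-0.46 ± 0.14, adjusted p = 0.0251). Acadvl, for very long chains, had 184, 176 and 169 CPM in flox control, 126, 149 and 138 in flox unloading and 138, 144 and 124 in flox reloading. In mKO, Acadvl had 160.0, 189 and 185 CPM in mKO control, 130.5, 153 and 131 in mKO unloading and 215, 133 and 174 in mKO reloading. The change of Acadvl in reloaded flox muscle was -0.38 ± 0.13, adjusted p = 0.0381. For these 3 dehydrogenases the unloaded flox libraries also lay below all flox controls, but the changes, -0.34 ± 0.10 for Acadm, -0.41 ± 0.14 for Acadl and -0.36 ± 0.13 for Acadvl, were not called.

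Hadha and Hadhb encode the subunits of the mitochondrial trifunctional protein, which carries out the remaining steps for long chains. Hadha had 423, 435 and 383 CPM in flox control, 277, 319 and 279 in flox unloading and 317, 319 and 293 in flox reloading. For Hadha in mKO the values were 363, 433 and 421 CPM in mKO control, 268, 328 and 280.3 in mKO unloading and 438, 311 and 402 in mKO reloading. It fell at unloading in flox (-0.50 ± 0.11, adjusted p = 0.0142) and mKO (-0.47 ± 0.11, adjusted p = 0.0166), stayed below control in reloaded flox muscle (-0.42 ± 0.11, adjusted p = 0.0122) and rose on reloading in mKO (0.39 ± 0.11, adjusted p = 0.0208; 0.52 ± 0.10 without replicate 2). Hadhb had 299, 292 and 277 CPM in flox control, 181, 213 and 201 in flox unloading and 208, 223 and 192 in flox reloading. The mKO levels for Hadhb were 271, 295 and 307 CPM in mKO control, 188, 241 and 184 in mKO unloading and 282, 204 and 276 in mKO reloading. Hadhb fell at unloading in flox (-0.55 ± 0.12, adjusted p = 0.0119) and mKO (-0.51 ± 0.12, adjusted p = 0.0141) and was lower in reloaded flox muscle than in control (-0.48 ± 0.12, adjusted p = 0.00649). Its mKO change on reloading was 0.32 ± 0.12, not called with all libraries and called without replicate 2 (0.45 ± 0.11, adjusted p = 0.011).

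Hadh, the hydroxyacyl-CoA dehydrogenase for shorter chains, had 183, 185 and 184 CPM in flox control, 125, 145 and 121 in flox unloading and 144, 141 and 137 in flox reloading. Its mKO levels stood at 175, 183 and 187 CPM in mKO control, 123, 138 and 128 in mKO unloading and 201, 140.0 and 188 in mKO reloading. It fell at unloading in flox (-0.50 ± 0.10, adjusted p = 0.0087) and mKO (-0.49 ± 0.10, adjusted p = 0.0083), and the mKO reloading libraries were all above the unloaded ones (0.44 ± 0.10, adjusted p = 0.00568; 0.59 ± 0.08 without replicate 2), whereas reloaded flox muscle stayed below control (-0.39 ± 0.10, adjusted p = 0.0103). Acaa2, the thiolase that releases acetyl-CoA, had 168, 172 and 146 CPM in flox control, 109, 123 and 106 in flox unloading and 122, 129 and 111 in flox reloading. The mKO values for Acaa2 were 157, 184 and 166 CPM in mKO control, 97.4, 125 and 101 in mKO unloading and 196, 104 and 160.1 in mKO reloading. It fell at unloading in mKO (-0.65 ± 0.16, adjusted p = 0.018) and was -0.52 ± 0.16 in flox, not called, with no overlap in either genotype. Acaa2 rose on reloading in mKO (0.51 ± 0.16, adjusted p = 0.031; 0.72 ± 0.12 without replicate 2, the only reloaded library within the unloaded range).

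Echs1, the short-chain enoyl-CoA hydratase, had 116, 129 and 131 CPM in flox control, 95.9, 103 and 98.1 in flox unloading and 72.3, 75.3 and 75.4 in flox reloading. Across the mKO libraries Echs1 had 113, 112 and 115 CPM in mKO control, 101, 107 and 93.2 in mKO unloading and 105, 72.6 and 99.2 in mKO reloading. Flox reloading lay below all unloaded and all control flox libraries, with -0.41 ± 0.10, adjusted p = 0.00415 against unloading and -0.75 ± 0.10, adjusted p = 5.55e-05 against control, and the latter had the smallest adjusted p of any member in any comparison. Decr1 and Eci1 serve the oxidation of unsaturated fatty acids. Decr1 had 156, 144 and 147 CPM in flox control, 97.6, 104 and 111 in flox unloading and 107, 116 and 114 in flox reloading. The mKO series of Decr1 was 143, 174 and 150.2 CPM in mKO control, 92.5, 128 and 101 in mKO unloading and 159, 102 and 137 in mKO reloading. Decr1 fell at unloading in flox (-0.52 ± 0.13, adjusted p = 0.0283) and mKO (-0.54 ± 0.13, adjusted p = 0.019) and was lower in reloaded flox muscle than in control (-0.41 ± 0.13, adjusted p = 0.0322). Eci1 had 99.5, 98.9 and 85.0 CPM in flox control, 80.2, 85.0 and 67.4 in flox unloading and 85.3, 76.6 and 69.6 in flox reloading. The mKO values for Eci1 were 97.3, 85.1 and 94.3 CPM in mKO control, 76.1, 78.0 and 77.5 in mKO unloading and 89.5, 83.5 and 102 in mKO reloading. The flox reloading decrease of Eci1 against control (-0.29 ± 0.10, adjusted p = 0.0423) came with ranges that overlapped.

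The electron transfer flavoprotein (Etfa and Etfb) and its ubiquinone oxidoreductase (Etfdh) had 2 of 3 genes lower in unloaded flox muscle and 2 of 3 lower in reloaded flox muscle against control. Etfa had 215, 203 and 194 CPM in flox control, 136, 158 and 157 in flox unloading and 166, 177 and 162 in flox reloading. In mKO, Etfa had 189.7, 212 and 193 CPM in mKO control, 153, 173 and 144 in mKO unloading and 225, 154 and 197 in mKO reloading. It fell at unloading in flox (-0.44 ± 0.11, adjusted p = 0.0242). Etfdh had 183, 156 and 158 CPM in flox control, 113, 131 and 126 in flox unloading and 126, 140.1 and 120.3 in flox reloading. The values of Etfdh in mKO were 153, 165 and 171 CPM in mKO control, 122, 146 and 116 in mKO unloading and 183, 121 and 161 in mKO reloading. Etfdh was lower in unloaded (-0.43 ± 0.12, adjusted p = 0.0491) and reloaded flox muscle (-0.36 ± 0.12, adjusted p = 0.0424) than in control, and its unloading call was kept in 3 of the 18 fits that left out a library. Etfb, whose exons are largely shared with other genes, had 11.1, 11.9 and 9.93 CPM in flox control, 9.30, 10.0 and 8.32 in flox unloading and 7.71, 8.56 and 8.01 in flox reloading. Its mKO values stood at 10.5, 13.3 and 9.80 CPM in mKO control, 8.01, 8.51 and 8.89 in mKO unloading and 12.8, 8.53 and 10.4 in mKO reloading. The reloaded flox value of Etfb was -0.44 ± 0.14, adjusted p = 0.0284 against control. In mKO muscle all 3 were lower at unloading with no overlap, at -0.34 ± 0.11, -0.35 ± 0.12 and -0.41 ± 0.14 for Etfa, Etfdh and Etfb, and none was called by edgeR.

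**Figure D4:**
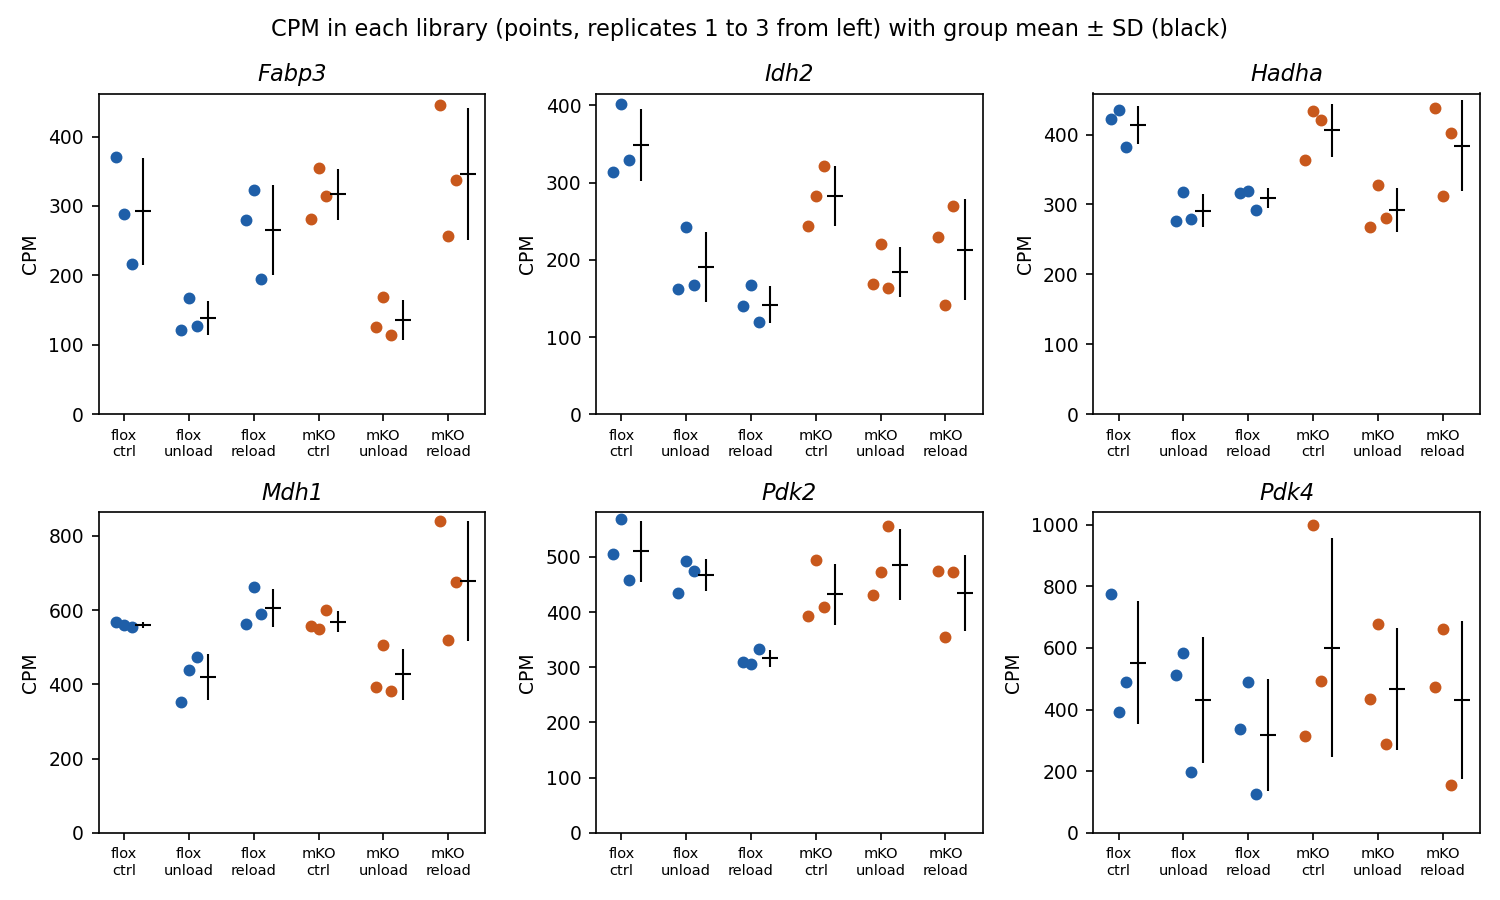
CPM of Fabp3, Idh2, Hadha, Mdh1, Pdk2 and Pdk4 in each library (points, replicates 1 to 3 from left to right) of the 6 groups along the horizontal axis, with the group mean ± SD in black. Fabp3 and Mdh1 dip in unloading and return, Pdk2 is lowest in the 3 flox reloading libraries (306 to 333 CPM), and Pdk4 spreads widely within groups (127 to 490 CPM in flox reloading).

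Before reloading, differences between the genotypes in these genes were not detectable with 3 libraries a group. In controls 0 of 37 members were called between mKO and flox by edgeR, 0 had an unadjusted p under 0.05 and 0 were called by DESeq2, and the same 3 counts held at unloading. Of all tested genes 0% were called by either tool in either comparison, and 4.03% in controls and 4.58% at unloading had an unadjusted p under 0.05. Ranges did not overlap for 1 member higher and 1 lower in mKO controls, against 4.82% and 4.97% of tested genes, and for 0 members at unloading, against 4.58% and 4.7%. The members' median difference was -0.02 in controls and 0.04 at unloading (0.00 under total-count scaling). For Idh2 the 95% interval of the difference was -0.73 to 0.13 in controls and -0.48 to 0.38 at unloading, and for Cs it was -0.28 to 0.24 and -0.23 to 0.29, so differences of the size of the unloading change are inside some of these intervals.

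At reloading all 37 members had a positive mKO minus flox difference, with a median of 0.31 (0.16 under total-count scaling). With all libraries 3 members were higher in mKO and 0 lower, against 1.06% and 3.85% of tested genes. An unadjusted p under 0.05 was found for 24 members, against 19.7% of tested genes. The members called were Suclg1 (0.34 ± 0.08, adjusted p = 0.0256), Pdk2 (0.46 ± 0.12, adjusted p = 0.0369) and Idh3a (0.33 ± 0.09, adjusted p = 0.0432). These were also the 3 members whose ranges did not overlap between the genotypes, against 9.58% of tested genes higher in mKO in that sense. DESeq2 called 8 members higher, adding Acadm, Fh1, Hadh, Idh3b and Idh3g, against 7.78% of tested genes called in either direction. Under total-count scaling, or with only the compared groups in the model, 0 were called.

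The count rested on single libraries. Without mKO reloading replicate 2, 25 members were higher in mKO and 0 lower, against 3.66% and 5.26% of genes tested, and the median difference was 0.42. By role these were 3 of 6 pyruvate dehydrogenase genes, 9 of 12 TCA cycle genes, 1 of 5 uptake and carnitine genes (Cpt2), 9 of 11 beta-oxidation genes and 3 of 3 electron transfer flavoprotein genes. The largest differences among them were Idh2 (0.81 ± 0.18, adjusted p = 0.0119), Pdk2 (0.59 ± 0.12, adjusted p = 0.00601), Acaa2 (0.56 ± 0.12, adjusted p = 0.0086), Acadvl (0.52 ± 0.11, adjusted p = 0.00749) and Etfb (0.52 ± 0.14, adjusted p = 0.0247). Cs differed by 0.42 ± 0.12, adjusted p = 0.034, and Pdk4 by -0.02 ± 0.59. The remaining 2 mKO libraries lay above all 3 flox reloading libraries for 34 of 37 members, against 19.7% of all tested genes. By contrast 0 members were called without flox reloading replicate 1 or 2 or without mKO reloading replicate 1 or 3, and 1 without flox reloading replicate 3. The removal of replicate 2 was chosen because that library stands apart in these same genes, so the higher counts without it are a description of the other libraries.

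**Figure D5:**
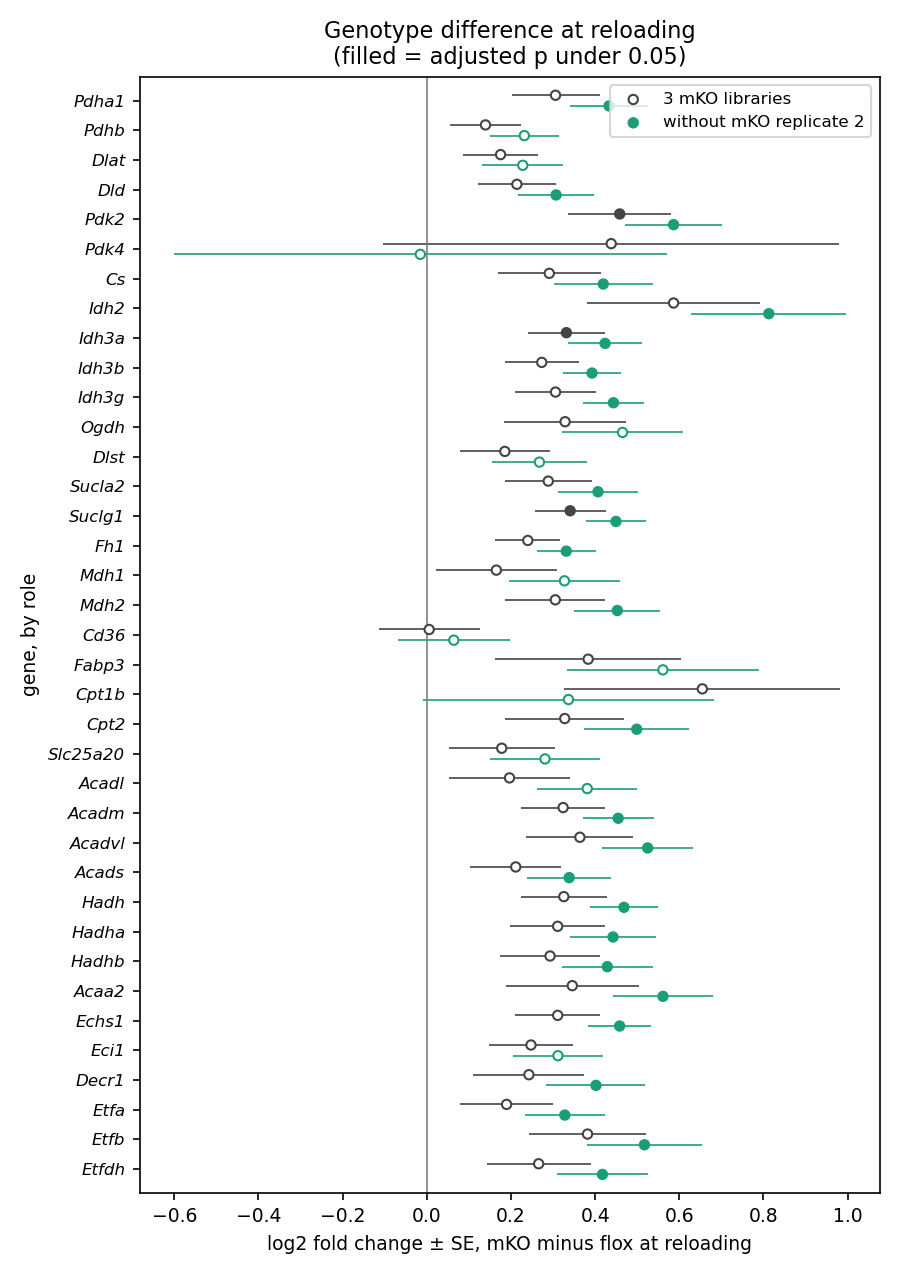
Log2 fold change of mKO over flox at reloading with its standard error for each member (vertical axis, by role), with all 3 mKO libraries (dark grey) and without mKO reloading replicate 2 (green), and filled points at an adjusted p under 0.05. With all libraries 3 points are filled and without replicate 2 there are 25, while Pdk4 keeps a wide error in both.

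Whether the response itself differed between genotypes was tested as the mKO change minus the flox change. For unloading minus control 0 members were called by edgeR, 0 had an unadjusted p under 0.05 and DESeq2 called 0, with a median of 0.05, against 0% of all tested genes called by either tool and 4.11% with an unadjusted p under 0.05. For reloading minus unloading 0 were called by edgeR, against 0% of all tested genes, and 0 by DESeq2, against 0.807%. The median was 0.25, and 6 members had an unadjusted p under 0.05, against 10.5% of tested genes. For reloading minus control 0 were called by edgeR and 14 had an unadjusted p under 0.05, against 0.0224% of tested genes called higher and 0.499% lower and 13.3% with an unadjusted p under 0.05. DESeq2 called 1, Pdk2 (0.70 ± 0.18 SE, adjusted p = 0.0108), against 2.36% of tested genes, which is about the share of the members. The authors' deposited table named as mKO reloading against control ranks genes by p as this difference does and not as the change within mKO that its name states, so it was read here as this difference. Pdk2 was also the only member with an adjusted p under 0.05 in that deposited table (log2 fold change 0.48 ± 0.24, adjusted p = 0.00998), against 2.68% of its genes. By edgeR the median difference of the members in reloading minus control was 0.30 (0.16 under total-count scaling), and all 37 values were positive. The largest by edgeR were Idh2 (0.89 ± 0.29, adjusted p = 0.171), Pdk2 (0.70 ± 0.17, adjusted p = 0.0734), Ogdh (0.53 ± 0.21, adjusted p = 0.252) and Echs1 (0.46 ± 0.14, adjusted p = 0.153), apart from Cpt1b (0.72 ± 0.46, adjusted p = 0.541), which has few counts. Cs was 0.31 ± 0.17 and Pdk4 0.32 ± 0.76.

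Without mKO reloading replicate 2, 8 members were called in the reloading minus control difference, all with a higher value in mKO, against 0.772% of genes tested called higher and 1.68% lower. They were Idh2 (1.11 ± 0.25, adjusted p = 0.0302), Pdk2 (0.83 ± 0.16, adjusted p = 0.0148), Echs1 (0.61 ± 0.10, adjusted p = 0.0096), Hadh (0.49 ± 0.11, adjusted p = 0.0294), Acadm (0.45 ± 0.11, adjusted p = 0.0475), Idh3b (0.42 ± 0.09, adjusted p = 0.0294), Idh3g (0.42 ± 0.10, adjusted p = 0.0337) and Suclg1 (0.41 ± 0.10, adjusted p = 0.0357). In the reloading minus unloading difference 1 member was then called, Idh3g (0.50 ± 0.10, adjusted p = 0.0316), against 0.126% higher and 0.41% lower among all genes tested. No single library other than this one gave a call in either difference. With all libraries edgeR called 0 members in both. Replicate 2 was left out because it stands apart in these same genes, so the calls without it are a description of the other libraries.

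Markers of the fibres and of other cells also changed at reloading, in part where the members did not. From unloading to reloading in flox muscle the members' median log2 fold change was 0.00. Relative to flox control, the fibre markers' median was 0.02, -0.12 and -0.03 (log2) in the unloaded flox libraries. It was -0.32, -0.28 and -0.27 in the reloaded ones. In bulk muscle fewer cells of a type and less RNA per cell cannot be told apart. Called markers, here and in the next paragraph, are to be read against the shares of all tested genes called higher and lower. At unloading these were 2.67% and 3.07% in flox and 4.09% and 3.66% in mKO. For flox reloading they were 12.3% and 10.3% against control and 17% and 14.9% against unloading. For mKO reloading they were 9.53% and 8.81% against unloading and 1.06% and 3.85% against flox (3.66% and 5.26% without mKO reloading replicate 2). At unloading the median of the 11 fibre markers was 0.03 in flox and -0.02 in mKO, while the members were at -0.36 and -0.29, and the macrophage list had 0 of 12 and 1 of 12 genes lower and 0 higher. Fibro-adipogenic progenitor markers, however, had 2 of 6 lower in unloaded flox and 3 of 6 in unloaded mKO muscle, and endothelial markers 0 of 8 and 1 of 8. In reloaded flox muscle against control, 5 of 11 fibre markers were lower (median -0.28), 12 of 12 macrophage markers were higher (median 1.14), and 4 of 6 fibro-adipogenic progenitor and 4 of 8 endothelial markers were higher. The summed macrophage level was 279 to 422 CPM there and 138 to 144 CPM in flox control. In mKO against flox at reloading, 2 of 11 fibre markers were higher (median 0.31, equal to that of the members), and 10 of 12 macrophage markers were lower (median -1.19). In the same comparison 3 of 6 fibro-adipogenic progenitor and 1 of 8 endothelial markers were lower. From unloading to reloading in mKO muscle 3 of 12 macrophage, 3 of 6 fibro-adipogenic progenitor and 3 of 8 endothelial markers rose, and in flox muscle 11 of 12, 4 of 6 and 5 of 8 did. Between genotypes without mKO reloading replicate 2, fibre and macrophage markers were 6 of 11 higher (median 0.38) and 12 of 12 lower (median -1.39). Slow and oxidative fibre markers summed to 4027 to 5136 CPM in flox control and 1480 to 4155 CPM in flox unloading, with replicate 1 lowest. In flox reloading they summed to 5421 to 6379 CPM. Sums in mKO control, unloading and reloading were 3533 to 5436, 2684 to 3216 and 5631 to 7892 CPM. Most of the flox sums was Myh2, with means of 3096, 2072 and 4282 CPM in control, unloading and reloading. Of the 9 markers, 3 rose from unloading to reloading in each genotype. The part of any of these cell types in the members' changes was not tested.

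Adipocyte markers had 0 of 7 called in the flox comparisons. Nearly all of their sum of 3662 to 6179 CPM was Car3, which muscle fibres also express, and the other 6 genes summed to 164 to 204 CPM in flox control, 166 to 234 in flox unloading and 70.6 to 270.4 in flox reloading, and to 142 to 228, 163 to 323 and 97.2 to 165 CPM in the same mKO groups. In mKO muscle Car3 fell at unloading (-0.39 ± 0.12) and rose on reloading (0.42 ± 0.12), while the median of the list was 0.27 and -1.02 in these comparisons and Cidec (-1.22 ± 0.37) and Lep (-1.75 ± 0.58) fell on reloading. Cidec and Lep were named after their values were seen. Schwann cell markers had 1 of 5 lower in flox reloading against unloading and 0 called elsewhere. Tendon markers had 1 of 4 lower in unloaded flox and 2 of 4 lower in unloaded mKO muscle, 2 of 4 rose on reloading in each genotype, and 1 of 4 was higher in reloaded flox muscle than in control. The neutrophil list, of which 4 of 5 genes were tested, had 1 gene higher in reloaded flox muscle against control and 1 higher in unloaded mKO muscle. Its 4 tested genes summed to 0.515 to 8.81 CPM. Cxcr2, one of its defining genes, had 0 counts in 6 libraries and was not tested.

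Other genes of the same pathways were taken from lists. Their counts are to be read against the shares of all tested genes called higher and lower. These were 2.67% and 3.07% in unloaded and 12.3% and 10.3% in reloaded flox muscle against control. They were 17% and 14.9% for flox reloading against unloading and 4.09% and 3.66% in unloaded mKO muscle. For mKO reloading they were 9.53% and 8.81% against unloading and 1.34% and 0.841% against control. For mKO against flox at reloading they were 1.06% and 3.85%, or 3.66% and 5.26% without mKO reloading replicate 2. Of 25 further TCA and pyruvate entry genes, 3 were lower in unloaded flox muscle, and these were Sdhb, the iron-sulphur subunit of succinate dehydrogenase (-0.58 ± 0.10, adjusted p = 0.00194), Suclg2 (-0.40 ± 0.09) and Sdhc (-0.31 ± 0.08). In reloaded flox muscle 13 were lower and 2 higher than control. The malic enzymes parted there: Me2 was higher (0.77 ± 0.15, adjusted p = 0.000971), and Me3 (-0.65 ± 0.10) and Me1 (-0.60 ± 0.11) were lower. Mpc2, a subunit of the mitochondrial pyruvate carrier, was lower (-0.68 ± 0.16), as was the phosphatase gene Pdp2 (-0.87 ± 0.29). In mKO the counts were 2 lower at unloading, 7 higher and 3 lower on reloading, and 0 against control at reloading, with Got1 (0.48 ± 0.14) and Got2 (0.46 ± 0.13), the aspartate aminotransferases of the malate-aspartate shuttle, among the risers. Between genotypes at reloading, Slc25a4 (0.29 ± 0.08) and Slc25a11 (0.27 ± 0.08) were higher and Me2 lower (-0.68 ± 0.14) in mKO, and without mKO reloading replicate 2, 12 of 25 were higher and 1 lower.

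Of 35 further fatty acid and ketone genes, 7 were lower in unloaded flox muscle and 0 higher. They included Acot2, an acyl-CoA thioesterase (-1.23 ± 0.31, adjusted p = 0.0242), Bdh1 and Oxct1, which use ketone bodies (-1.22 ± 0.32, adjusted p = 0.0312 and -0.91 ± 0.18, adjusted p = 0.0083), and Plin5, a lipid droplet protein at mitochondria (-1.15 ± 0.31, adjusted p = 0.0353). Bdh1 rose on reloading in flox (1.5 ± 0.32, adjusted p = 0.0016) and in mKO (1.43 ± 0.32, adjusted p = 0.0048), as Fabp3 did. In all, 4 of the 35 rose and 11 fell on reloading in flox muscle, and 5 rose and 5 fell in mKO muscle. Against control, 16 were lower in reloaded flox muscle, among them Acot1 (-1.82 ± 0.42), Acot2 (-1.19 ± 0.31), the fatty acid transporter Slc27a1 (-1.15 ± 0.13, adjusted p = 1.14e-05) and Acadsb (-0.82 ± 0.11), and 1 in reloaded mKO muscle (Acadsb, -0.55 ± 0.10). Slc27a1 (0.52 ± 0.13, adjusted p = 0.0243) and Crat (0.27 ± 0.08) were higher in mKO than in flox at reloading, and 9 of 35 were so without mKO reloading replicate 2.

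Of 24 regulators, 1 was higher and 1 lower in unloaded flox muscle and 3 higher and 1 lower in unloaded mKO muscle, and 3 were lower in reloaded flox muscle against control and 1 in reloaded mKO muscle. From unloading to reloading 3 rose and 5 fell in flox muscle and 3 rose and 4 fell in mKO muscle, and with 24 genes several of these counts are near the shares of all genes. Ppargc1a, which encodes PGC-1 alpha, was called in no comparison, with -0.09 ± 0.11 at unloading and -0.14 ± 0.11 at reloading against control in flox muscle and 0.14 ± 0.11 and 0.13 ± 0.11 in mKO. Its relative Ppargc1b was lower at unloading in flox (-0.56 ± 0.12, adjusted p = 0.0117) and mKO (-0.51 ± 0.12, adjusted p = 0.0154) and rose on reloading in flox (0.77 ± 0.12, adjusted p = 9.98e-05) and mKO (0.83 ± 0.12, adjusted p = 0.000159). Ppara, the fatty acid receptor, was -0.57 ± 0.17 in unloaded flox and -0.55 ± 0.17 in unloaded mKO muscle, with adjusted p of 0.0596 and 0.0604, and was called in no comparison. Esrra, estrogen-related receptor alpha, was lower in reloaded flox muscle than in control (-0.44 ± 0.12, adjusted p = 0.0108) and -0.08 ± 0.12 in reloaded mKO muscle. Klf15, a factor of amino acid and lipid metabolism, was lower in reloaded flox (-1.20 ± 0.10, adjusted p = 9.98e-07) and reloaded mKO muscle (-0.71 ± 0.10, adjusted p = 0.00186) than in control, and higher in mKO than in flox at reloading (0.39 ± 0.10, adjusted p = 0.0245), as was Rxra (0.29 ± 0.06, adjusted p = 0.0116). Of 22 genes of mitochondrial import, chaperones and outer membrane, 2 were lower in unloaded flox muscle, the chaperonins Hspe1 (-0.47 ± 0.10) and Hspd1 (-0.36 ± 0.09). In reloaded flox muscle 7 were lower than control, with the channel gene Vdac1 at -0.70 ± 0.10, adjusted p = 0.000129, and 2 higher. In mKO against flox at reloading 1 of 22 was higher (Vdac1, 0.39 ± 0.10, adjusted p = 0.0341), and 6 were without mKO reloading replicate 2.

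The spread of Pdk4 within groups was the largest of the members (SD 0.845 on the log2 scale, above 97.1% of tested genes), ahead of Cpt1b (0.478). Taking each library's deviation from its group mean over 18 libraries, the genes of these pathway lists whose deviation was most like that of Pdk4, out of 142 compared, included Cpt1a (Pearson r 0.885, Spearman rho 0.872), Ucp3 (0.864 and 0.820) and Plin5 (0.753 and 0.837). Exact permutation within groups (46656 relabellings, both directions counted) gave p = 0.000386, 0.00163 and 0.000600 for r, and 0.0304, 0.0511 and 0.0304 after Benjamini-Hochberg adjustment over the 142. For rho the exact permutation p were 0.00112, 0.00296 and 0.000364, or 0.0528, 0.0700 and 0.0396 adjusted. With flox reloading replicate 3 and mKO reloading replicate 3 left out, the libraries whose Pdk4 deviation lay farthest from the median deviation, r was 0.861, 0.830 and 0.718. The group means were not recomputed without these libraries. The remaining deviations in those groups still carry them, so these r do not show what the likeness is without them. These genes were named by rank after their values were seen, and like Pdk4 they lie in libraries that share depth and composition.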

How the data were processed

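Poly-A RNA from 18 gastrocnemius samples was sequenced with a stranded kit, per the labels' protocols. The submitters' processing notes name STAR 2.7.3a, featureCounts 2.0.3, DESeq2 and the build GRCm38.p6, while the header of the count table gives featureCounts 1.6.4, Ensembl release 94 and counting without strand. The deposited counts are raw reads per gene, per the file headers, with 45069595 to 51592566 per library, and no 2 libraries agreed within sampling noise. The authors also deposited DESeq2 tables with log2 fold changes, p-values and a mean signal (baseMean, their mean of normalised counts), whose p-values rank genes as the fits here do for the genotype difference in controls and the 3 genotype by condition terms.

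From the counts, edgeR (4.0.16, R 4.3.3) fitted 1 model of 6 group means (12 residual degrees of freedom) with TMM scaling to the 17833 genes that passed filterByExpr. The quasi-likelihood test with Benjamini-Hochberg adjustment (threshold 0.05) gave 12 contrasts. CPM and RPKM were computed here, log2 CPM with a prior count of 2. The scripts were tested on simulated data. Alternatives were DESeq2 (1.42.0), other scalings and filters, the compared groups alone, a replicate block and leaving out each library; the AAGGTCA search and the comparison of Pdk4 without its outlying libraries were added after the data were seen. Values were given per library for members called in at least 1 contrast, and for up to 10 called members per contrast by size, for Pdk4 and Cs always, for up to 4 called genes per pathway list and contrast, and for Ppargc1a, Ppara and Esrra; 1 gene of the lists is not reported here. The members and all gene lists (other TCA, other fatty acid and ketone, regulator and import genes, and markers of fibres, slow fibres, macrophages, endothelium, adipocytes, fibro-adipogenic progenitors, neutrophils, Schwann cells and tendon) were chosen with earlier results of these data known.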

Additional observations from a re-analysis of the deposited data

Results flagged for a closer look

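In the authors' deposited table named as mKO reloading against control, Pdk2 was the 1 member with an adjusted p under 0.05 (0.00998), against 2.68% of the genes in that table. The name states a change within mKO muscle, but its p-values rank genes as the mKO minus flox difference in the change from control to reloading does, and that reading was inferred here. The deposited log2 fold change of Pdk2 was 0.48 ± 0.24 (with its standard error). For that difference the unshrunken value here was 0.70 ± 0.18 with DESeq2 (adjusted p = 0.0108) and 0.70 ± 0.17 with edgeR (adjusted p = 0.0734), so the call depended on the tool.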

How the results depend on the processing

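Depth was similar in all libraries, and the number of libraries (3 a group) and the spread between them limit these results more than counting error. With 1 library left out in turn, the number of members called ranged from 2 to 23 for unloading against control in flox muscle and from 3 to 21 in mKO muscle, from 12 to 26 for flox reloading against control and from 0 to 2 for the same change in mKO muscle (2 without mKO reloading replicate 1). For reloading against unloading it ranged from 5 to 8 in flox muscle and from 5 to 22 in mKO muscle (median 0.16 to 0.38), and for mKO against flox at reloading from 0 to 25 (median 0.19 to 0.42). The mKO reloading median against control ranged from -0.18 to 0.053. The genotype difference ranged from 0 to 1 for reloading minus unloading and from 0 to 8 for reloading minus control (median 0.20 to 0.42). Called without each single library were 2 of 15 members in flox unloading, 12 of 24 in flox reloading against control, 3 of 9 in mKO unloading and 0 of 3 between genotypes at reloading.

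Total-count scaling gave 11 members (median -0.25) for flox reloading against control, 16 for mKO reloading against unloading, 1 for mKO reloading against control, 0 (median 0.16) for mKO against flox at reloading and a median of 0.16 for the genotype difference in reloading minus control. Without the low-count filter the counts were 19 in mKO unloading, 17 for mKO reloading against unloading, 5 for mKO reloading against control, 18 between genotypes at reloading, and 1 and 4 for the genotype differences in reloading minus unloading and minus control. The share of all genes called in that unfiltered fit is not given here. Its edgeR test also called Pdk4 in flox reloading against control (adjusted p = 7.25e-14), where the ranges overlapped. The unfiltered counts are therefore not read as stronger evidence than the main ones. DESeq2 called 2 for mKO reloading against control, 8 between genotypes at reloading and 1 for the difference in reloading minus control. With the compared groups alone, mKO reloading against unloading had 4 and the genotypes at reloading 0. The cause of these shifts was not tested.

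Some values of Cs and Pdk4 that the main fit did not call changed sign in some of these fits. Cs in flox reloading against unloading ranged from -0.0095 to 0.16. Pdk4 in mKO muscle ranged from -0.74 to 0.21 at unloading and from -0.94 to 0.10 for reloading against control. For mKO reloading against unloading Pdk4 ranged from -0.57 to 0.29 (0.26 without mKO unloading replicate 2). With the replicate number as a block, 14, 7 and 24 members were called in the flox changes (unloading, reloading against unloading, reloading against control), 9, 8 and 0 in mKO and 3 between genotypes at reloading, so no count moved by over 1.5 times. The numbers share no stated animal or batch. Same-numbered libraries of different groups had a median correlation of 0.0244 over 45 pairs (-0.0744 to 0.126), against -0.00428 for other numbers. Of 18 libraries, 11 correlated best with their own number. Pdk4 was lowest in replicate 3 of flox and mKO unloading (198 and 288 CPM) and of flox and mKO reloading (127 and 155 CPM), but of neither control group. Whether the numbers mark a shared batch was not tested.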
